A study of Homo sapiens with 6 samples.

Results

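The enzymes that write, copy, erase and read DNA methylation, together with a pair of histone methyltransferases that silence genes, were followed in K562 cells resistant to methotrexate (MTX). The 10 genes were DNMT1, UHRF1, DNMT3A, DNMT3B, TET1, TET2, TET3, MBD2, EZH2 and SETDB1, and every probe set whose platform annotation named one of them was taken. This gave 21 probe sets of the 54675 on the array, and 10 genes of the 19775 that are named alone by a probe set. None of the 21 named a further gene. K562 is an established human leukaemia line with erythroid features. Resistant cells, labelled as resistant to 10e-5 M of the folate antagonist MTX (a notation that can be read in more than 1 way) and obtained by stepwise exposure, were compared with the parental K562 cells that are sensitive to it, with 3 arrays in each group. The groups also differed in their culture medium: that of resistant cells lacked thymidine, hypoxanthine and glycine and held dialysed serum, whereas parental cells had Ham's F12. Effects of medium and of resistance cannot be told apart here. Whether the 3 arrays of a group came from separate cultures is not stated in the labels, so a p-value refers to the spread between these arrays, which may be technical.

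In mammalian cells methyl groups are placed on the cytosine of CpG dinucleotides. DNMT3A and DNMT3B methylate unmodified DNA, and DNMT1, guided by UHRF1 to newly replicated DNA, copies the pattern to the daughter strand. The TET dioxygenases oxidise methylcytosine and so start its removal, and proteins with a methyl-CpG-binding domain such as MBD2 bring histone deacetylases to methylated DNA. EZH2, the catalytic subunit of Polycomb repressive complex 2 (PRC2), methylates histone H3 at lysine 27, and SETDB1 methylates it at lysine 9. The methyl group comes from S-adenosylmethionine, whose synthesis draws on the folate cycle that MTX blocks.

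Of the 10 enzymes, TET1 changed, with a call that not every alternative fit kept, and the others did not pass the test. TET1 was 4.06-fold higher in resistant cells, at 11.4 ± 3.91 array medians, against 2.72 ± 0.481 in parental cells (SD, n = 3 each). The other 9 genes had log2 differences between -0.22 and 0.37. In bulk RNA of this kind, fewer cells that express a gene and less RNA of it per cell cannot be told apart. Among genes that work with these enzymes, MBD1, a methyl-CpG-binding protein related to MBD2, stood at 0.453 ± 0.194 array medians in resistant cells, against 8.005 ± 1.70 in parental cells (SD, n = 3 each). It was the 1 gene of 91 tested that was called, where 2.77% of all tested genes were called. Its resistant readings were below the array median, so that it was tested only through its parental readings.

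A level here is the signal of a probe set divided by the median signal of its array, and levels below 1, the median of the array, are read here as background. A probe set was tested if its level averaged at least 1 over the 6 arrays, and called if it had a limma adjusted p under 0.05 and a difference of at least 2-fold. Of the 21 probe sets of the enzymes, 13 passed the level filter and each gene kept at least 1. The other 8 are given as levels without a test. The array medians were 10.2 to 12.5 in resistant and 12.7 to 14.3 in parental arrays. Across the probe sets of the array (no independent replicates), Spearman correlations were 0.846 to 0.869 among resistant arrays, 0.849 and 0.856 between parental array 1 and the other parental arrays, and 0.882 between those. Between resistant and parental arrays they were 0.819 to 0.848. Resistant array 1 was thus about as close to parental array 2 (0.848) as to resistant array 3 (0.846). Of 9 erythroid and K562 markers on the array, 9 averaged above background. Their summed level was 1120 to 1351 array medians in resistant and 1681 to 1730 in parental arrays. Of the 9, HBE1 was called lower and averaged 61.6 in resistant and 600.5 in parental cells. HBZ averaged 665.5 in resistant and 607.1 in parental cells, and 4 of the 9 had a positive difference. The summed level was 26.8 to 37.1 in resistant and 99.9 to 155.6 in parental arrays for 10 leukocyte markers, of which CD3E, MS4A1, CD14 and MPO were below 1, and 14.3 to 25.3 in resistant and 40.6 to 54.1 in parental arrays for 8 fibroblast markers, of which COL1A2, LUM and DCN were below 1. For 10 epithelial markers, of which CLDN4 and KRT5 were below 1, it was 223 to 307 in resistant arrays, against 644 in parental array 1 and 339 and 273 in the other parental arrays. Parental array 1 was also the highest for the leukocyte markers, at 155.6, against 99.9 and 103.0 in the other parental arrays. CDH1 read 21.8 in that array, against 2.01 and 0.717 in the other parental arrays, and PTPRC 60.2, against 0.374 and 0.402. In the resistant arrays PTPRC read 6.504, 7.616 and 9.598, above those other parental arrays. CD3D averaged 1.047 in resistant and 39.15 in parental cells, and LYZ 16.97 in resistant and 54.52 in parental cells. For CD3D and LYZ every parental array was above every resistant array. A positive difference was seen for 2 of the 6 leukocyte markers tested, PTPRC and SPI1. Of these lists, 6, 5 and 8 genes averaged at least 1. Their part in the differences described here was not tested.

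The promoter windows of the genes that changed are shown first, because CpG dinucleotides are the substrate of this system. Each is a RefSeq window of 300 bases in GRCh38.p14, from 250 bases before a transcription start to 50 after it, with CpG dinucleotides in capitals. TET1 has 3 such windows. The first is that of the upstream start, at chr10:68560087-68560386 (plus strand), and the other shown is at chr10:68600224-68600523 (plus strand). MBD1 has 1 window, at chr18:50281718-50282017 (minus strand).
TET1 upstream start: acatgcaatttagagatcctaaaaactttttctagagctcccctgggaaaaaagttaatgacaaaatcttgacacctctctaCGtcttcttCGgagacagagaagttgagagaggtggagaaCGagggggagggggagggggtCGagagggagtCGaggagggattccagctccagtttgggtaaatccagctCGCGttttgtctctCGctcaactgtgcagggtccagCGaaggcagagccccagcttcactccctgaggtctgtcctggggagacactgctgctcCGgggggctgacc
TET1 downstream start: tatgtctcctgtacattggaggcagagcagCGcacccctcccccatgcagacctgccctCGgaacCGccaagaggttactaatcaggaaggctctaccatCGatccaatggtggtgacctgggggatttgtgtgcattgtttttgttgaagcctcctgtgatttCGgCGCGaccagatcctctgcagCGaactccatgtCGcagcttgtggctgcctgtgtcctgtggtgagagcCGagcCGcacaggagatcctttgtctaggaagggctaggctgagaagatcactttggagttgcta
MBD1: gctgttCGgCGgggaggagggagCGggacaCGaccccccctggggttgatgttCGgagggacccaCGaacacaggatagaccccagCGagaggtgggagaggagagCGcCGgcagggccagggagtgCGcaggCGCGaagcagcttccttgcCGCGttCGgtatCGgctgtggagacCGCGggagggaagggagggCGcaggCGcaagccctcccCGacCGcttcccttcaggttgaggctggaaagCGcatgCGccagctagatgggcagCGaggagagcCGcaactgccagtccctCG
The upstream window of TET1 held 10 CpG dinucleotides and the downstream one 11, and the window of MBD1 held 27. Over 35114 windows of all genes the median was 14, with quartiles of 4 and 28. At least as many CpGs as in these windows were found in 56.4%, 54.7% and 28.2% of all windows. The TET1 window that is not shown held 6 CpGs, and 66.3% of all windows held at least as many. The arrays do not measure methylation of these bases, nor which start was used.

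TET1 encodes a dioxygenase with a CXXC domain that binds CpG-rich DNA. Probe set 228906_at read 9.29, 8.90 and 15.9 array medians in resistant arrays 1 to 3, against 2.27, 3.23 and 2.66 in parental arrays 1 to 3. Resistant array 3 was the highest, and the lowest resistant array was still above every parental array. The log2 difference was 2.02 (SE 0.302, 95% interval 1.30 to 2.75), a fold between 2.46 and 6.71 (limma adjusted p = 0.0262). Of the 26692 probe sets tested, 1.2% were called higher and 1.14% lower (2.33% either way), and of the 13 probe sets of the enzymes 1 was called higher and 0 lower. By the size of the rise this probe set was at rank 412. The second probe set of TET1, 214862_x_at, averaged below 1 and was not tested. It read 1.78, 1.94 and 0.480 in the resistant arrays, against 0.301, 0.0611 and 0.0157 in the parental arrays. The groups did not overlap, but resistant array 3 and all parental arrays were in the background, so that this is no separate support.

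The call of TET1 depended on single arrays, whereas its direction did not. Without resistant array 1, 2 or 3 the adjusted p was 0.075, 0.0818 and 0.0527, without parental array 2 or 3 it was 0.0799 and 0.0933, and without parental array 1 the call held (adjusted p = 0.0405). The log2 difference stayed between 1.76 and 2.17 in these fits. The call was also lost with no level filter (adjusted p = 0.125), by the methods' t-test (0.105) and with the replicate number as a block (0.0818).

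**Figure D1:**
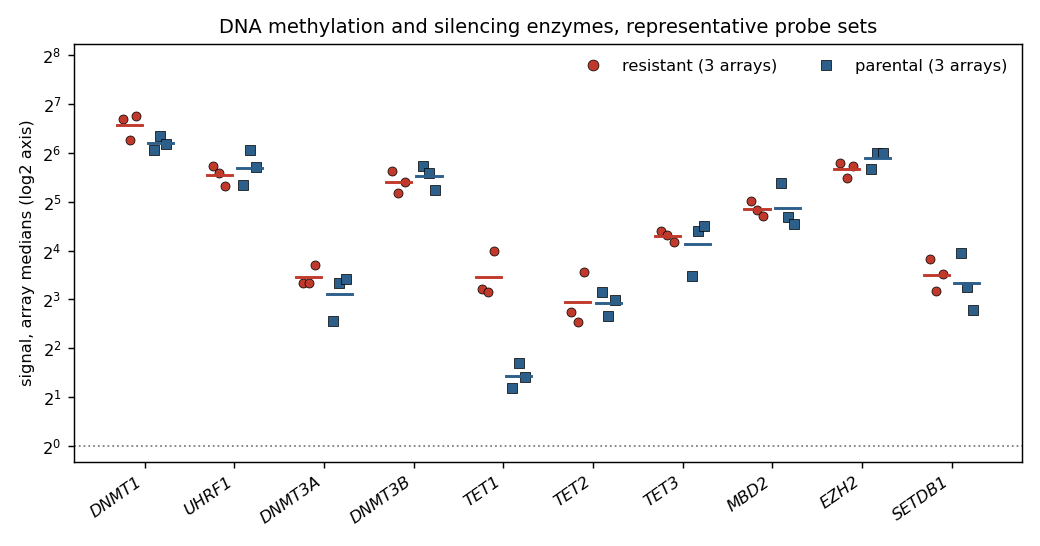
Signal of the representative probe set of each of the 10 enzymes, as multiples of the array median (log2 axis), for each of 3 resistant arrays (red circles) and 3 parental arrays (blue squares), with bars at the mean log2 level and a dotted line at the array median. Only for TET1 do the 3 resistant arrays lie apart from the 3 parental ones.

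TET2 and TET3 were not called. TET2, a frequent target of mutation in myeloid neoplasms, read 6.72, 5.79 and 11.9 array medians in the resistant arrays, against 8.90, 6.31 and 7.95 in the parental arrays, and the groups overlapped (log2 difference 0.02, 95% interval -0.77 to 0.81). Its other probe sets, 235461_at and 1569385_s_at, averaged 0.567 and 0.541 and lay in the background. TET3, the member best known from the zygote, read 21.1, 19.9 and 18.05 in the resistant arrays, against 11.2, 21.1 and 22.8 in the parental arrays. Parental array 1 was the low one, the ranges overlapped, and the log2 difference was 0.17 (95% interval -0.60 to 0.93). A second tested probe set of TET3 had a log2 difference of -0.06, and the third averaged 0.508.

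Whether TET1 differed from its paralogues was asked with the log2 ratio of their signals within each array. The ratio of TET1 to TET2 was 0.47, 0.62 and 0.42 in the resistant arrays, against -1.97, -0.97 and -1.58 in the parental arrays, a difference of 2.01. For TET1 to TET3 it was -1.18, -1.16 and -0.19 in the resistant arrays, against -2.30, -2.71 and -3.10 in the parental arrays, a difference of 1.86. The ratios did not overlap in either pair (two-sided exact permutation p = 0.1 each, and 0.167 after Benjamini-Hochberg adjustment over 5 pairs), and 0.1 is the smallest p that 3 against 3 arrays allow. The pairs were chosen with earlier results of these data known and hold the same TET1 readings, so that they are no independent evidence of its difference.

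Among the DNA methyltransferases no gene was called. DNMT1 read 103.4, 77.3 and 107.8 array medians in the resistant arrays, against 66.9, 81.4 and 72.7 in the parental arrays. Resistant arrays 1 and 3 were above all parental arrays and resistant array 2 was below parental array 2 (log2 difference 0.37, SE 0.230, 95% interval -0.18 to 0.92, limma adjusted p = 0.43). UHRF1, the ubiquitin ligase that recruits DNMT1, read 53.4, 48.2 and 39.8 in the resistant arrays, against 40.4, 66.6 and 52.1 in the parental arrays, with a log2 difference of -0.15 (95% interval -0.79 to 0.49). The ranges of both genes overlapped between groups.

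DNMT3A, the de novo enzyme often mutated in acute myeloid leukaemia, read 10.1, 10.1 and 13.1 array medians in the resistant arrays, against 5.86, 10.2 and 10.7 in the parental arrays, by its brightest probe set. Parental array 1 was the low one. The log2 difference was 0.36 (95% interval -0.37 to 1.08), and a second tested probe set gave -0.15 (95% interval -1.27 to 0.98). The third averaged 0.992, at the edge of the filter. DNMT3B read 49.2, 36.1 and 42.3 in the resistant arrays, against 53.4, 48.04 and 38.05 in the parental arrays (log2 difference -0.13, 95% interval -0.70 to 0.45). The ratio of DNMT3A to DNMT3B differed by 0.48 on the log2 scale, less than the spread between parental arrays of 0.70 (SD, n = 3; two-sided exact permutation p = 0.5).

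MBD2, which brings the nucleosome remodelling and deacetylase complex (NuRD) to methylated DNA, was read above background by 1 of its 4 probe sets. That one gave 32.2, 28.4 and 26.3 array medians in the resistant arrays, against 41.5, 25.8 and 23.4 in the parental arrays. Parental array 1 was highest and the other parental arrays were the lowest (log2 difference -0.02, 95% interval -0.69 to 0.65). The other probe sets of MBD2 averaged 0.618 to 0.716.

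EZH2 read 55.1, 45.1 and 52.8 array medians in the resistant arrays, against 50.8, 63.6 and 64.3 in the parental arrays. The groups overlapped through parental array 1 (log2 difference -0.22, SE 0.217, 95% interval -0.74 to 0.30, limma adjusted p = 0.623). SETDB1, which deposits H3 lysine 9 trimethylation at retroelements and zinc finger genes, gave unlike readings by its 2 probe sets. By the brighter one, 203155_at, it read 14.2, 9.06 and 11.4 in the resistant arrays, against 15.4, 9.54 and 6.92 in the parental arrays, with a log2 difference of 0.18 (95% interval -0.67 to 1.02).

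The second probe set of SETDB1, 214197_s_at, read 10.3, 7.03 and 7.52 array medians in the resistant arrays, against 4.29, 4.50 and 4.87 in the parental arrays. Every resistant array was above every parental array, and the log2 difference was 0.85 (SE 0.233, 95% interval 0.29 to 1.40), which did not pass the test (limma adjusted p = 0.129). The resistant arrays lay wholly above the parental arrays for 2 of the 13 tested probe sets of the enzymes and wholly below for 0, where the shares of all tested probe sets were 14.9% and 12.3%.

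**Figure D2:**
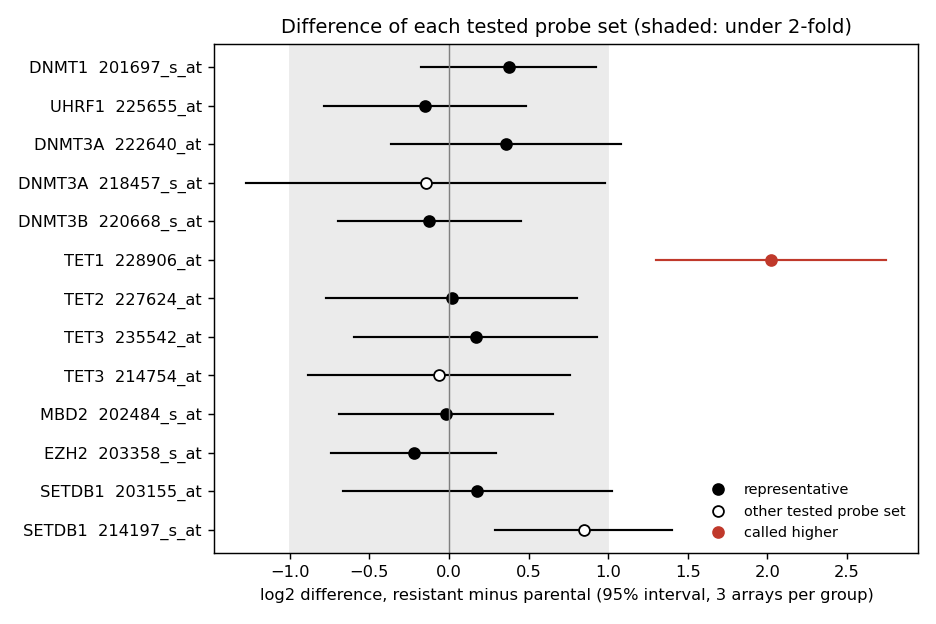
Log2 difference of resistant minus parental cells for the 13 tested probe sets of the 10 enzymes (points, with 95% limma intervals, 3 arrays per group), with representative probe sets filled and the range under 2-fold shaded. The interval of TET1 lies wholly beyond 2-fold, from 1.30 to 2.75, and each of the others reaches into the shaded range.

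For 7 of the 10 genes the 95% interval of the representative probe set lay wholly within a 2-fold difference either way. These were DNMT1, UHRF1, DNMT3B, TET2, TET3, MBD2 and EZH2. For DNMT3A and SETDB1 it reached 2.12-fold and 2.03-fold, so that a difference of 2-fold lay within their intervals. The median log2 difference of the 10 genes was 0.09, and that of all 11810 tested genes was 0.02.

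DNMT1, UHRF1 and EZH2 are known as genes of proliferating cells, and the E2F factors of S phase are known to act on them. Their RefSeq promoter windows (GRCh38.p14) were searched on both strands for TTTCCCGC, TTTGGCGC, TTTCGCGC and TTTGCCGC, with 0 overlapping matches in the windows of the 10 enzymes. A match stood in 4 of the 23 windows of the 10 enzymes, 17.4%, and in 3.31% of all 35114 windows. These shares are not like for like, because every sequence searched contains a CpG. The matching windows held 30 to 46 CpGs, against a median of 14 over all windows, and windows of 1 gene, such as those of UHRF1, are not independent. The matches were in these 3 genes, and each is shown in a stretch of 60 bases with the motif in capitals. They lie at chr19:10194922-10194981 (minus strand) for DNMT1, at chr19:4909461-4909520 and chr19:4909958-4910017 (plus strand) for UHRF1, and at chr7:148884257-148884316 (minus strand) for EZH2.
DNMT1: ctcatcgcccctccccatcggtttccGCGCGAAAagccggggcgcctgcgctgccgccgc
UHRF1 first start: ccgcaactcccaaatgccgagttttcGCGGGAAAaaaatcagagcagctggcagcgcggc
UHRF1 second start: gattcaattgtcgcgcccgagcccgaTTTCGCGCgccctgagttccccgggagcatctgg
EZH2: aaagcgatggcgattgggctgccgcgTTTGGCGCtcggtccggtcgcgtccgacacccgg
A match is a description of the letters and not a binding site. The 18 S phase and cell cycle genes on the array, among them MCM2, TYMS, RRM2 and MKI67, summed to 1813, 1561 and 1768 array medians in the resistant arrays, against 1510, 1664 and 1532 in the parental arrays. By limma 0 were called (2 at an unadjusted p under 0.05), 9 of the 18 had a positive difference, and the median log2 difference was 0.04. For this list and those below, the counts over all 11810 tested genes were 2362 at an unadjusted p under 0.05 and 6075 with a positive difference.

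The partners of the maintenance pathway held no call, with 0 of 7 called by limma (2 at an unadjusted p under 0.05) and a median log2 difference of 0.08. HELLS, a chromatin remodeller needed for methylation of repeats, averaged 10.997 array medians in resistant and 10.3 in parental cells, and the replication clamp PCNA 137.0 in resistant and 125.8 in parental cells. UHRF2, the paralogue of UHRF1, read 19.2, 12.9 and 17.7 in the resistant arrays, against 8.97, 5.90 and 6.16 in the parental arrays. The groups did not overlap, and the log2 difference of 1.25 (SE 0.275) missed the threshold (limma adjusted p = 0.0805). CDCA7, a partner of HELLS, averaged 80.3 in resistant and 36.0 in parental cells (adjusted p = 0.171). Within arrays, the log2 ratio of UHRF1 to UHRF2 was 1.48, 1.90 and 1.17 in the resistant arrays, against 2.17, 3.50 and 3.08 in the parental arrays, a difference of -1.40 without overlap (two-sided exact permutation p = 0.1, 0.167 adjusted over 5 pairs). Partners other than called genes were chosen for naming after their values were seen.

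Of 6 tested methyl-CpG readers and genes related to them 1 fell and 0 rose, where 1.47% of all tested genes were called lower and 1.3% higher. MBD1, which binds methylated CpGs and has been linked to SETDB1 in H3 lysine 9 methylation, read 0.244, 0.488 and 0.627 array medians in the resistant arrays, against 6.20, 8.24 and 9.57 in the parental arrays. All resistant readings were in the background, and the lowest parental reading was well above it. The log2 difference was -4.23 (SE 0.395, limma adjusted p = 0.00538), 18.7-fold lower by the measured signals. With readings below 1 in the resistant arrays the size is uncertain, and it was -2.62 with a pseudocount of 1 array median. The call was lost by the methods' t-test (adjusted p = 0.0661). All 5 probe sets of MBD1 averaged below 1 in resistant cells and passed the level filter only through the parental arrays, so that the 3 of them called lower are no separate support. For 4 of them every resistant array was below every parental array, and for 226862_at the readings were 0.154, 0.904 and 1.07 in the resistant arrays, against 1.69, 2.27 and 1.01 in the parental arrays. Among the other genes of this list, MBD3, the NuRD subunit related to MBD2, averaged 30.5 in resistant and 17.5 in parental cells (adjusted p = 0.21), and MBD4, a repair glycosylase, 62.6 in resistant and 63.97 in parental cells.

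**Figure D3:**
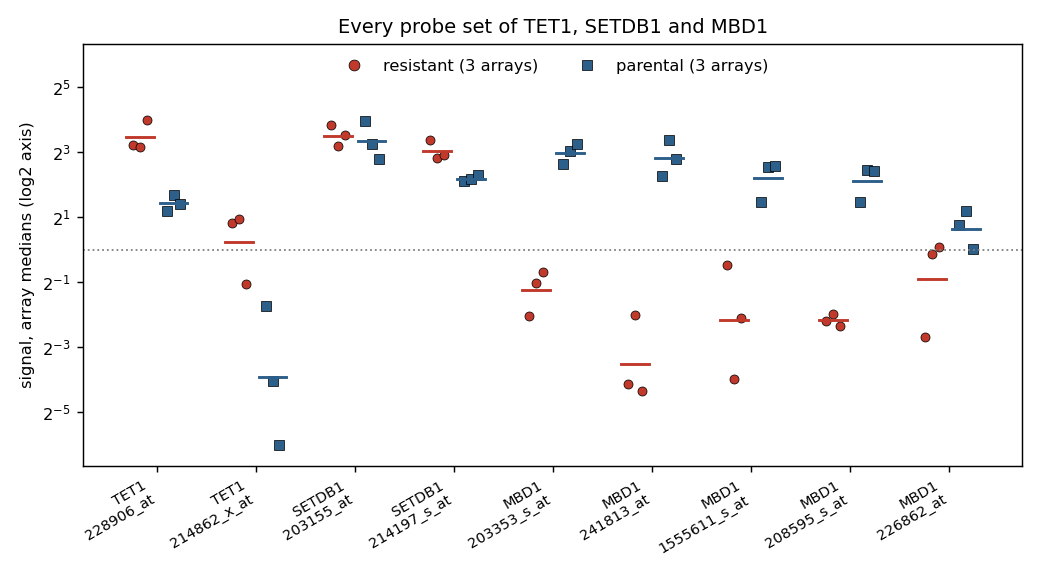
Signal of every probe set of TET1, SETDB1 and MBD1 as multiples of the array median (log2 axis), for 3 resistant arrays (red circles) and 3 parental arrays (blue squares), with bars at the mean log2 level and a dotted line at the array median. The resistant points lie above the parental points for both probe sets of TET1, of which 214862_x_at was not tested, and for 214197_s_at of SETDB1, which was not called (adjusted p = 0.129), and they lie below the parental points for 4 of the 5 probe sets of MBD1.

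The genes beside TET1 and MBD1 were set against them in chromosomal order. Of the 10 nearest tested genes of TET1 on chromosome 10, 5 on each side, 0 were called by limma. SLC25A16 and CCAR1, the adjacent ones, had log2 differences of -0.27 and 0.10. The widest difference was that of SRGN, a proteoglycan gene, with 0.317, 0.016 and 0.127 array medians in the resistant arrays, against 0.727, 53.5 and 33.6 in the parental arrays, where parental array 1 was in the background as well. Of the 10 nearest tested genes of MBD1 on chromosome 18, 0 were called. CXXC1, the adjacent gene on one side and a CpG-binding protein itself, averaged 17.95 array medians in resistant and 19.3 in parental cells. MYO5B on the other side, close to background in both groups, had a log2 difference of -2.16 (limma adjusted p = 0.229). SCARNA17, a small RNA gene next to MYO5B, read 10.2, 9.31 and 4.75 in the resistant arrays, against 1.22, 1.08 and 0.102 in the parental arrays (adjusted p = 0.103). This comparison was chosen after the values of the genes were seen, and the order is that of GRCh38.p14.

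**Figure D4:**
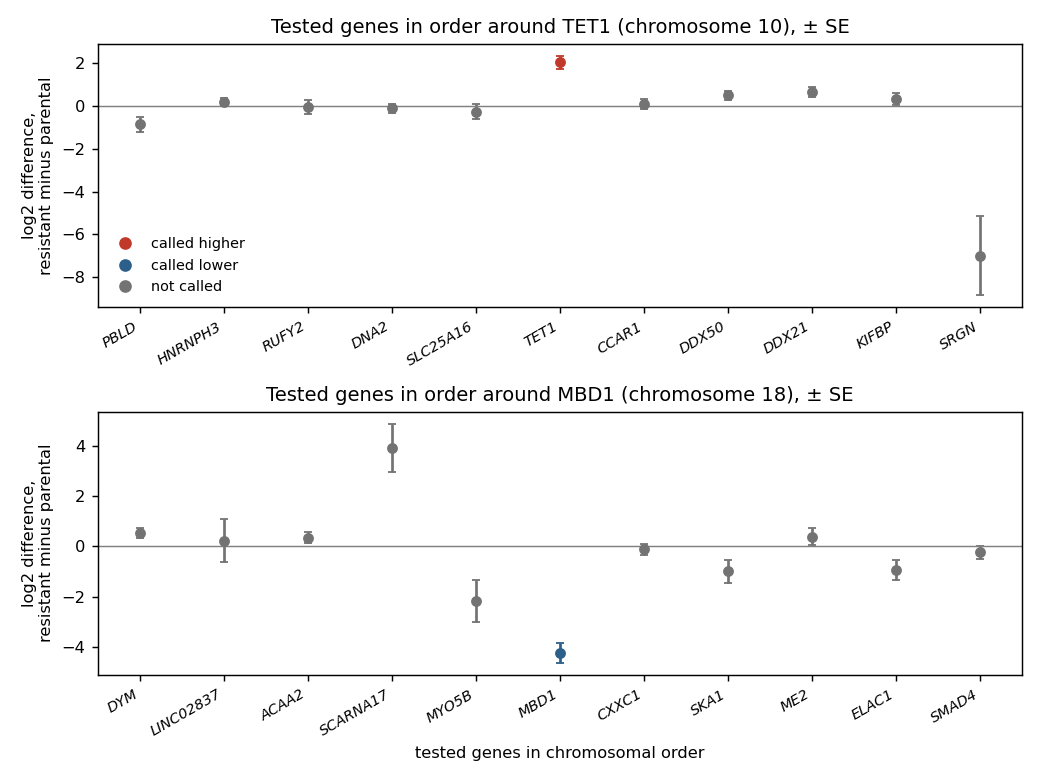
Points give the log2 difference, resistant minus parental, and lines its SE (3 arrays in each group) for TET1, MBD1 and the 5 nearest tested genes on each side, in chromosomal order. TET1 was called higher and MBD1 lower, and none of the 20 genes around them was called.

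Genes of demethylation beyond the TET family held 0 calls by limma in 11 tested (2 at an unadjusted p under 0.05, median log2 difference 0.39). IDH1, which makes the 2-oxoglutarate that TET enzymes use, read 131.2, 94.8 and 92.7 array medians in the resistant arrays, against 27.9, 65.5 and 74.5 in the parental arrays (limma adjusted p = 0.251). Parental array 1 was far below the other parental arrays for this gene. CXXC5, a CXXC domain protein, averaged 120.5 in resistant and 64.8 in parental cells (adjusted p = 0.15).

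The complexes around MBD2, EZH2 and SETDB1 held no call by limma, with 2, 2, 3 and 2 genes at an unadjusted p under 0.05 among NuRD, PRC2, Polycomb repressive complex 1 and H3 lysine 9 methylation. Of 12 NuRD subunits 9 had a positive difference (median log2 difference 0.23), of 9 PRC2 subunits 7 (median 0.38), of 14 subunits of Polycomb repressive complex 1 10 (median 0.21), and of 15 genes of H3 lysine 9 methylation 7 (median -0.16). Of all 11810 tested genes, 2362 had an unadjusted p under 0.05 and 6075 a positive difference (median 0.02). Of the core partners of EZH2, EED read 75.1, 79.8 and 89.1 array medians in the resistant arrays, against 40.1, 44.5 and 51.3 in the parental arrays, without overlap (log2 difference 0.85, limma adjusted p = 0.104). SUZ12, the other core partner, averaged 91.5 in resistant and 58.5 in parental cells, with overlap (adjusted p = 0.291). EZH1, the paralogue of EZH2, averaged 20.2 in resistant and 14.7 in parental cells, and the within-array log2 ratio of EZH2 to EZH1 differed by -0.68 (two-sided exact permutation p = 0.2). EHMT2, which mono- and dimethylates H3 lysine 9, averaged 14.3 in resistant and 7.01 in parental cells (adjusted p = 0.153). Neither the 2 demethylases of lysine 27 nor the 7 of lysine 9 included a called gene.

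Enzymes of the methyl donor S-adenosylmethionine were not called by limma either, in 5 tested (3 at an unadjusted p under 0.05). MAT2A, which makes it, read 146.3, 125.0 and 102.8 array medians in the resistant arrays, against 97.6, 73.8 and 72.1 in the parental arrays (limma adjusted p = 0.244). AHCY, which removes the product of its use, read 132.1, 86.05 and 109.8 in the resistant arrays, against 60.04, 73.4 and 65.2 in the parental arrays (adjusted p = 0.191). In both genes every resistant array was above every parental array, which was so for 14.9% of all tested probe sets. NNMT, which consumes it to methylate nicotinamide, read 2.86, 2.16 and 1.65 in the resistant arrays, against 152.3, 28.4 and 12.9 in the parental arrays, with parental array 1 far above the other parental arrays (log2 difference -4.14, SE 0.859, adjusted p = 0.0696).

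Over the 11 lists of partner genes together, 91 genes were tested, of which 0 rose and 1 fell. Of all 11810 tested genes 1.3% were called higher and 1.47% lower (2.77% either way). An unadjusted p under 0.05 was seen for 18 of the 91 and for 2362 of the 11810. The difference was positive for 61 of the 91 partners and for 6075 of all 11810 genes, and the median log2 difference was 0.13 and 0.02.

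**Figure D5:**
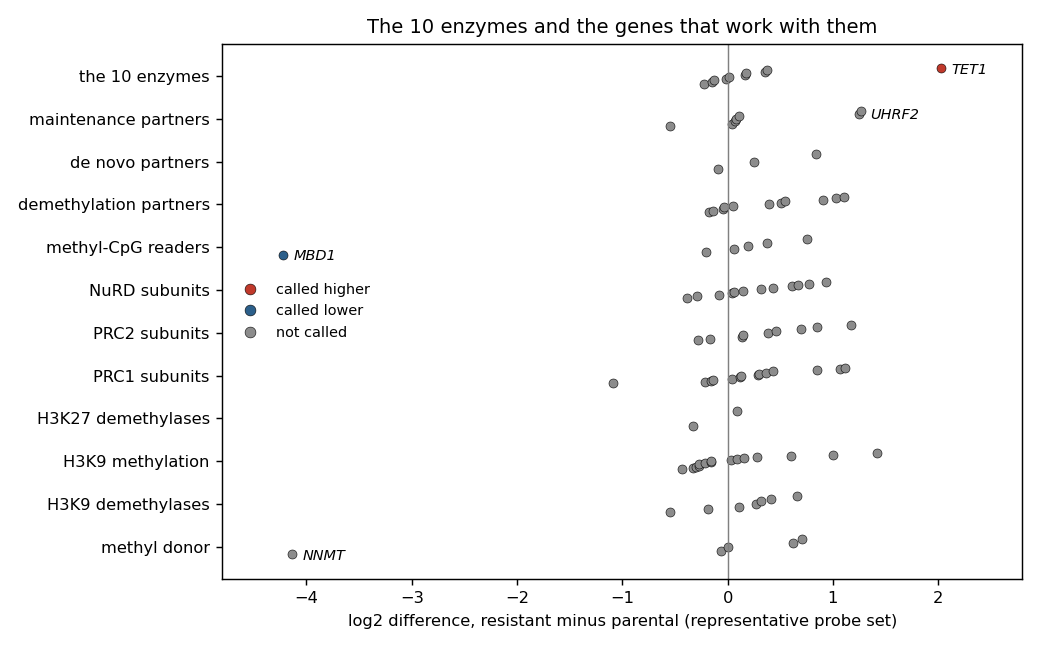
Log2 difference of resistant minus parental cells by representative probe set for the 10 enzymes (top) and for 11 lists of genes that work with them, 1 point per tested gene. TET1 was called higher and MBD1 lower (coloured), and UHRF2 and NNMT, named beside their points, were not called.

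Genes that these systems are known to hold silent were partly measurable. Of 18 germline genes with methylated promoters on the array, 4 were tested, and 1 fell, where 1.47% of all tested genes were called lower. MAGEC2, a cancer-testis antigen, read 0.407, 0.912 and 0.98 array medians in the resistant arrays, against 22.9, 38.8 and 35.5 in the parental arrays (log2 difference -5.47, SE 0.411, limma adjusted p = 0.00305), by the 1 of its 2 probe sets that was tested. Its resistant readings were in the background, so that it passed the level filter through the parental arrays alone, and its log2 difference was -4.22 with a pseudocount of 1 array median. The call was lost by the methods' t-test (adjusted p = 0.0526). Of 32 HOX and other developmental genes known as targets of PRC2, 20 were tested, of which 1 rose and 0 fell. Of all tested genes 1.3% were called higher and 1.47% lower, and a single call is no result about either list. PAX6, a homeobox factor of eye and brain, read 17.5, 15.6 and 16.3 in the resistant arrays, against 4.95, 4.92 and 4.39 in the parental arrays, and both of its probe sets were called higher (log2 difference 1.79, SE 0.196, adjusted p = 0.00915). PAX6 lost its call without resistant array 2 (adjusted p = 0.0521) or parental array 2 (0.0508).

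The genes most like TET1 over the 6 arrays, by Pearson correlation of log2 levels among tested genes, were HS3ST3B1 (r = 0.9997), a heparan sulfate sulfotransferase, the zinc finger gene GZF1 (0.997) and the polarity scaffold gene PALS1 (0.997). HS3ST3B1 read 17.3, 17.3 and 25.7 array medians in the resistant arrays, against 6.50, 8.21 and 7.09 in the parental arrays. These are descriptions over 6 arrays in 2 groups, where any gene that differs between the groups correlates with TET1.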

How the data were processed

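Total RNA was hybridised to Affymetrix HG U133 PLUS 2.0 arrays. The deposited values were intensities, 1 linear signal per probe set, which per the labels the authors computed with MAS5. Array medians differed, so the scaling to the median that the methods describe was not in these values. Here signals were scaled to a median of 1 on each array, values under 0.01 were set to 0.01, and log2 was taken. The 62 AFFX controls and probe sets averaging under 1 array median were left out, and 26692 were tested with limma 3.58.1 (R 4.3.3; lmFit, eBayes, two-sided, Benjamini-Hochberg over all tested). A gene was represented by its tested probe set of highest mean log2 value. Of 54675 probe sets, 41097 named 1 gene, 1801 several and 11777 none, and 41043 were matched by gene ID to GRCh38.p14. The fit was also run on simulated data with independent noise for each probe set. These data held no effects of single arrays, so that the run does not bear on how far the calls depend on them. Precision is limited by having 3 arrays in each group.

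The 10 genes and the gene lists were chosen with earlier results of these data known. Named were all 10 genes, up to 4 called genes of each list, and the 3 genes most correlated with a called one. Alternatives were quantile normalization, values as deposited, the 75th percentile, no level filter or one at 2 medians, pseudocounts of 0.25 and 1, an intensity trend with a robust prior, the methods' t-test, a replicate block, leaving out each array, and leaving out shared-class probe sets (_s_at, _x_at, _a_at). The t-test named after the methods assumed equal variance and used the log2 levels and level filter given here, without their control-strength filter and error model. The alternatives for partner genes and within-array ratios were chosen after seeing the data.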

Additional observations from a re-analysis of the deposited data

How the results depend on the processing

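The number of probe sets of the enzymes called higher, 1 by limma, was 0 with no level filter (TET1 adjusted p = 0.125), 0 by the methods' t-test (0.105) and 0 with a replicate block (0.0818), and 0 to 1 when 1 array was left out. The number called lower was 0 under every alternative run, 0 by the methods' t-test included, and 0 of the 10 genes had a negative difference at an unadjusted p under 0.05. The log2 difference of TET1 stayed between 1.69 (pseudocount 1) and 2.17. Deviations of same-numbered arrays from their group means correlated at -0.01, -0.03 and -0.01, so that the numbers do not pair the arrays, and the block left 133 probe sets higher and 136 lower in all, against 319 and 303.

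Of all probe sets, 204 were called higher with the values as deposited (321 lower, a higher share of 38.9% against 51.3%; all tested probe sets then had a median log2 difference of -0.18, against 0.03), 97 higher and 77 lower with no level filter, 455 lower with a pseudocount of 0.25, 599 higher and 592 lower with one of 1, 563 and 570 with the intensity trend, 82 and 44 by the methods' t-test, 198 and 187 without shared-class probe sets, and 103 (without resistant array 2) to 633 (without parental array 1) higher and 79 (without parental array 2) to 447 (without parental array 1) lower with 1 array left out. Of the partner genes, 1 was called higher (UHRF2) and 2 lower (MBD1 and NNMT) with a filter at 2 array medians, a pseudocount of 1 or the intensity trend, 2 lower with a pseudocount of 0.25, and 0 lower by the methods' t-test or without shared-class probe sets, where the representative of MBD1 is left out. With 1 array left out, 0 to 2 were higher (UHRF2 and PCGF2 without parental array 1) and 1 to 2 lower (NNMT beside MBD1 without parental array 1 or 3).

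Of 328 values under the alternatives run, 296 kept direction and call, 15 changed the call and 17 the direction. Those that changed direction were enzymes near 0, none of them called. With values as deposited TET2, TET3 and SETDB1 had log2 differences of -0.183, -0.033 and -0.0242, and TET2 had -0.00324 after quantile normalization. With 1 array left out, the log2 difference ranged from -0.333 to 0.0286 for UHRF1, from -0.622 to 0.115 for DNMT3A (218457_s_at), from -0.292 to 0.226 for TET2, from -0.156 to 0.358 for TET3, from -0.370 to 0.152 for its second probe set, from -0.182 to 0.232 for MBD2 and from -0.0938 to 0.485 for SETDB1. The cause was not tested. The call of MBD1 was lost by the methods' t-test (adjusted p = 0.0661), as were those of MAGEC2 (0.0526) and HBE1 (0.0621), and that of PAX6 with no level filter (0.0858) and with the replicate block (0.0639).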
